A study of Mus musculus with 2 samples.

Results

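The regions described here are the genomic flanks of intracisternal A-particle (IAP) elements that still carry internal sequence: the 1000 bp upstream of each 5′ LTR and the 1000 bp downstream of each 3′ LTR, read in the direction of the element and without any base that lies in another listed IAP fragment. The authors' annotated list of IAP copies was used for 1997 of its entries, all of those on chromosome 1 and those on the start of chromosome 10. It gave 622 flanks of 330 elements, 313 upstream of 5′ LTRs and 309 downstream of 3′ LTRs, among 3459 regions in all when LTRs, internal fragments and the flanks of solo LTRs were included. Of these flanks, 540 were on chromosome 1 and 82 on chromosome 10. The assay was TEPBAT, which stands for Target Enrichment after Post-Bisulfite Adaptor Tagging and in which bisulfite-converted DNA is copied from random primers and then amplified with a primer inside the LTR. It was run once on sperm and once on tail, with genomic DNA of the same adult C57BL/6J male and no treatment. There were no replicates, so every test below compares these libraries and not the tissues. No expression was measured, and the tissue labels were not checked against markers.

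IAP elements are endogenous retroviruses of the mouse. A complete copy has an LTR at each end with the internal viral genes between them, and transcription starts in the 5′ LTR. When such an element integrates, a short stretch of host DNA is copied onto both sides, the target site duplication. The DNA just outside the LTRs is host sequence that differs from copy to copy, which is what allows a read from a repeated LTR to be placed. Most CpGs of IAP LTRs carry DNA methylation in sperm and in somatic tissue, and methylation can reach past an element into the host DNA beside it.

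The flanks were read from primers placed inside the LTR, and these decide on which strand a flank can be seen. How far it can be seen depends on the place of the primer and on the length of the PCR products, which the authors selected on a gel. The primers were designed for DNA in which unmethylated cytosines read as T. IAP-BS1 points out of the 5′ end of the LTR and has a mixed base, printed here in capitals in its 2 forms, and IAP-BS2 points out of the 3′ end.
IAP-BS1 (first form): ggggaaggtagagtataAg
IAP-BS1 (second form): ggggaaggtagagtataTg
IAP-BS2: ggtttttgaagatgtaagtaataaagtttt

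With up to 2 mismatches and no gap, IAP-BS1 was found in 200 of the 313 5′ LTRs and IAP-BS2 in 202 of the 309 3′ LTRs. The median distance from the primer's own 5′ end to the outer end of the LTR, primer included, was 124 bp on the 5′ side and 91 bp on the 3′ side. Of 226 5′ flanks with a reference CpG in their first 300 bp, those whose LTR matched IAP-BS1 without mismatch reached 20 calls in 57.0% of 100 cases in sperm and in 57.0% in tail. With 3 mismatches the share was 21.2% of 33 in sperm and 18.2% in tail, and with 4 or more it was 0 of 46 in both. On the 3′ side the shares were 78.7% in sperm and 68.9% in tail of 61 flanks with no mismatch, against 26.6% in sperm and 20.3% in tail of 79 flanks with 4 or more ungapped mismatches. A gap in the match was not searched for.

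The element with the most calls among those whose flanks both had at least 100 calls and 3 positions in both libraries, and whose 6 bases outside the LTRs were identical, is shown as an example of a flank pair. It is an IAPLTR1 element of 7125 bp on the minus strand of chromosome 1 (GRCm38, chr1:103205166-103212290). The 150 bases of each flank nearest to the LTR are printed 5′ to 3′ in the direction of the element, with CpGs and the 6 duplicated bases in capitals. The duplication stands at the end of the 5′ flank and at the start of the 3′ flank.
5′ flank, chr1:103212291-103212440, minus strand: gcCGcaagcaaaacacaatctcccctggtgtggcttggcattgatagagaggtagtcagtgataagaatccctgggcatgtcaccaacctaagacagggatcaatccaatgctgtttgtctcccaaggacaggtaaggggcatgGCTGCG
3′ flank, chr1:103205016-103205165, minus strand: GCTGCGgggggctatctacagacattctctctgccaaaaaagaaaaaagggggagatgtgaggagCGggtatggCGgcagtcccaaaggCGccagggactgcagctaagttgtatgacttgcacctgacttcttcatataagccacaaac

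The duplication of this element holds a CpG, so that the same host CpG could be read on both sides. On the 5′ side, 1 bp outside the LTR, its level was 0.605 of 248 calls in sperm and 0.954 of 216 calls in tail. On the 3′ side, 5 bp outside the LTR, it was 0.850 of 8564 calls in sperm and 0.915 of 3230 calls in tail. The copies were read on opposite strands. In both places the sperm library was lower. Further out in the 3′ flank, the CpG at 164 bp had a level of 0.548 of 2804 calls in sperm and 0.996 of 515 calls in tail, while that at 183 bp had 0.960 in sperm and 0.937 in tail. CpGs 19 bp apart thus differed by over 0.4 within the sperm library.

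Identical duplications were common in the reference genome. Among 288 elements with 1 LTR of each kind, 210 (72.9%) had the same 6 bases on both sides and 8 had 5 matching bases. Only 3 of the identical duplications held a CpG. In 16 elements none of the 6 bases matched. The median span between the outer LTR ends was 4833 bp.

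The calls lay close to the LTR. In 5′ flanks, 99.9% of 80787 sperm calls and 99.6% of 70988 tail calls were within 300 bp of the LTR end. In 3′ flanks the shares were 99.9% of 327866 sperm calls and 98.9% of 113331 tail calls. Of the reference CpGs at 1 to 50 bp, 60.0% in sperm and 53.3% in tail had at least 5 calls in 5′ flanks, and 74.2% in sperm and 67.7% in tail in 3′ flanks. Beyond 300 bp and up to 400 bp these shares were 0.585% in sperm and 3.51% in tail (5′) and 7.05% in sperm and 14.7% in tail (3′). The outer 600 bp of the 1000 bp windows were therefore almost unseen. On the strand that each primer copies lay 99.88% of 5′ calls in sperm and 99.83% in tail, and 99.95% of 3′ calls in both libraries.

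**Figure D1:**
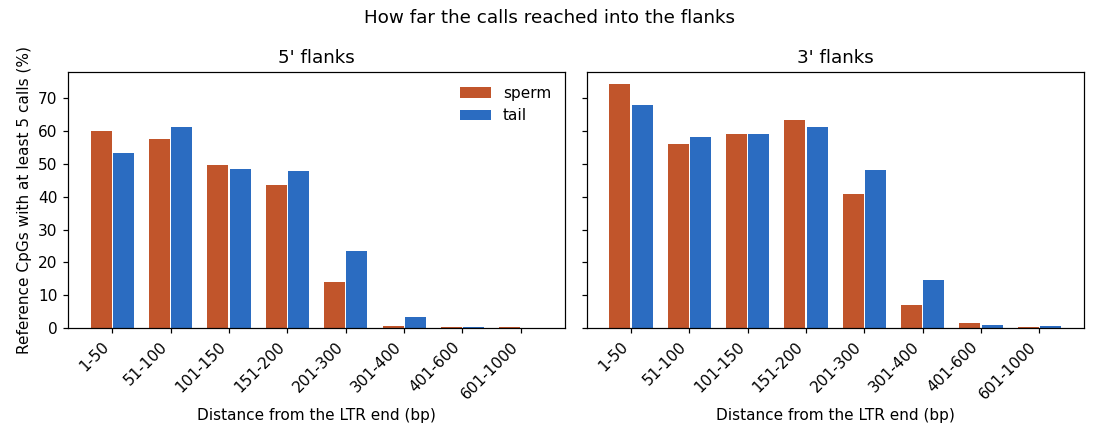
Share of reference CpGs (%) with at least 5 calls by distance from the LTR end in bp, for 5′ flanks (left) and 3′ flanks (right), with sperm bars left of tail bars. Coverage was highest within 200 bp of the LTR and fell to 0.585% (sperm) and 3.51% (tail) of CpGs between 300 and 400 bp in 5′ flanks.

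Host sequence next to the elements was poor in CpG. The median flank had 1 reference CpG in its first 300 bp, and 87 5′ flanks and 72 3′ flanks had none. At least 1 call was found in 334 flanks in sperm and 357 in tail, with 408653 calls in sperm and 184319 in tail. The 10 deepest flanks of each side held between 54.4% and 62.6% of its calls. At least 20 calls were found in 91 5′ flanks in sperm and 90 in tail, and in 135 3′ flanks in sperm and 130 in tail. In both libraries, 78 5′ flanks and 116 3′ flanks reached this minimum, which is 194 of 622 (31.2%). The other flanks, among them 127 of the 128 flanks outside the subfamilies IAPLTR1, IAPLTR1a, IAPLTR2, IAPLTR2a, IAPLTR2a2 and IAPLTR2b and 3 with no base free of other copies, enter the counts above but have no level in the comparison of libraries. The exception among these 128 was a 3′ flank of IAPEY.

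The flanks were methylated at most of their CpGs but varied widely. The level of a flank is the mean over its covered CpG positions, from 0 to 1. Among flanks measured in both libraries, the median level of 5′ flanks was 0.778 in sperm (quartiles 0.588 and 0.923) and 0.752 in tail (0.616 and 0.945). The median level of 3′ flanks was 0.749 in sperm (0.543 and 0.899) and 0.707 in tail (0.537 and 0.848). The order-statistic 95% intervals of these medians ran from 0.702 to 0.856 in sperm and 0.691 to 0.883 in tail for 5′ flanks, and from 0.656 to 0.792 in sperm and 0.635 to 0.769 in tail for 3′ flanks, so that they overlapped between libraries and between sides. Flanks of solo LTRs had medians of 0.827 (upstream) and 0.826 (downstream) in sperm and 0.819 and 0.782 in tail. A level at or under 0.2 was found in 6 of the 194 flanks in sperm and in 6 in tail, and 37 flanks (19.1%) were above 0.8 in both.

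Positions with a single call had lower mean levels than deep ones, which bears on the means over positions. In 3′ flanks, 82 positions with a single sperm call had a mean level of 0.268, while 221 positions with at least 100 calls had 0.813. The corresponding tail means were 0.427 of 103 positions and 0.786 of 168. In 5′ flanks the means were 0.463 of 54 single-call positions and 0.770 of 100 deep positions in sperm, and 0.393 of 89 and 0.865 of 98 in tail. The classes between did not all follow this order, since 46 positions with 5 to 19 sperm calls in 5′ flanks had a mean of 0.823. When calls were summed over a flank, so that deep positions weigh most, 5′ flanks had a median of 0.796 in sperm and 0.891 in tail, and 3′ flanks one of 0.844 in sperm and 0.823 in tail. The order of the libraries for 5′ flanks thus turned with the weighting. It also turned when positions under 5 calls were left out, and when flanks were limited to 300 bp. The median difference of sperm minus tail in the main measure was 0.003 (5′) and 0.011 (3′), with intervals from −0.042 to 0.050 and from −0.032 to 0.037.

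Single flanks differed between the libraries in both directions. Each flank was tested with Fisher's exact test on its summed calls, with Benjamini-Hochberg adjustment over 1493 regions, and called where the adjusted p was under 0.05 and the levels differed by at least 0.2. Lower in sperm were 15 of 78 5′ flanks and 16 of 116 3′ flanks, against 9.91% of all regions tested. Higher in sperm were 11 5′ flanks and 24 3′ flanks, against 5.69% of all regions. Together 66 of 194 flanks (34.0%) were called in either direction, against 15.6% of all regions, and 128 were not. For comparison, 18 of 265 5′ LTRs were lower and 0 higher in sperm, and 5 of 257 3′ LTRs were lower and 3 higher. With levels from summed calls, 22 5′ flanks were lower and 6 higher in sperm, and 15 3′ flanks were lower and 27 higher. The flanks of solo LTRs had called shares of 40.3% (upstream) and 37.0% (downstream). A flank had a median of 2 or 3 covered positions and an LTR 10 or 11, and the part of this depth gap in the counts was not tested. In 3 called flanks the summed calls pointed the other way. Reads were not tagged by molecule before the PCR and may be copies of 1 molecule, so that p-values and limits here cover counting error only.

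**Figure D2:**
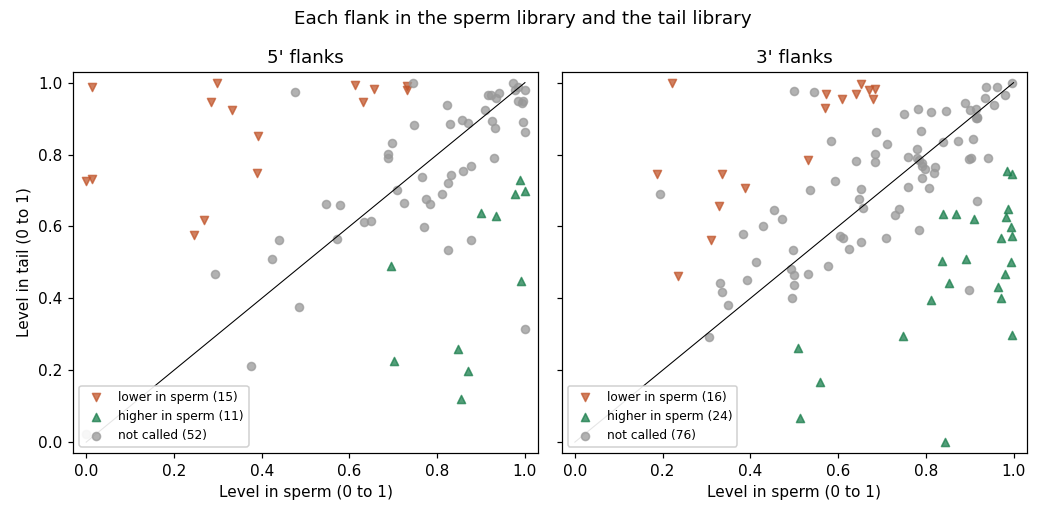
Level (0 to 1) of each flank with at least 20 calls in both libraries, sperm on the x axis and tail on the y axis, for 78 5′ flanks (left) and 116 3′ flanks (right). Triangles mark the 31 flanks called lower and the 35 called higher in sperm, and flanks lie far from the diagonal on both sides of it.

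Across the 194 flanks, levels in the libraries were weakly related (Pearson's r 0.209, Spearman's rho 0.203, as a description over regions that share 2 libraries and differ in depth). The levels lay within 0.2 of each other in 117 flanks (60.3%). Among flanks with 1 covered position in the library with fewer, 45.1% of 51 were called, against 22.1% of 95 flanks with 3 or more. Read by CpG position (at least 10 calls in both libraries, adjusted over 107519 positions), 43 positions in 5′ flanks (28.5% of those tested) were lower in sperm and 14 (9.27%) higher. In 3′ flanks 44 of 260 (16.9%) were lower and 45 (17.3%) higher. The shares over all positions of the files were 11.8% lower and 7.75% higher. With at least 20 calls in both, 172 of 363 flank positions (47.4%) were above 0.8 in both libraries and 1 was at or under 0.2 in both. This position, named after its values were seen, lay 35 bp upstream of an IAPLTR1a 5′ LTR at chr1:117709048 and had 0 methylated of 55 calls in sperm and a level of 0.023 of 44 calls in tail. A count of 0 in 55 calls allows a level of up to 0.0545 by counting error alone.

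The flanks with the largest differences and enough depth are shown with their sequences, since their levels can be followed CpG by CpG. Named flanks had at least 100 calls and 3 positions in both libraries, which 84 flanks met. All the sequences are printed in the direction of the element from GRCm38, with CpGs in capitals, and each runs to 10 bases past the last CpG with 5 calls in both libraries. A 3′ flank starts at the LTR and a 5′ flank ends at it. The first 3 were lower in sperm.
IAPLTR2 3′ flank, chr1:117992987-117993222, plus strand: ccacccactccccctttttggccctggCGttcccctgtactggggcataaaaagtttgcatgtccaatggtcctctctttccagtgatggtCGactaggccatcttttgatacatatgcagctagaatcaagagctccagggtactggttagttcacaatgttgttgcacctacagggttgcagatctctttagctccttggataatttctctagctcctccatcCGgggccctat
IAPLTR2 5′ flank, chr10:29014271-29014482, minus strand: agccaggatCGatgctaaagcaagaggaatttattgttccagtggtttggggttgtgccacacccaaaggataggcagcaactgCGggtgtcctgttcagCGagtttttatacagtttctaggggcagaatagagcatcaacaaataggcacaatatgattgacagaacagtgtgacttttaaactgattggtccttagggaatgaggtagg
IAPLTR1 3′ flank, chr1:125323973-125324053, plus strand: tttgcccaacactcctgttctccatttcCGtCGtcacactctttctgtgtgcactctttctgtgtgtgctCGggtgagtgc

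The first of these lay 6102 bp from Gm7145, a gene model, in DNA that was repeat-masked over all of its first 300 bp. Its CpG at 28 bp had a level of 0.347 of 72 calls in sperm and 0.775 of 89 calls in tail. The CpG at 92 bp was low in both, with 0.218 of 1590 calls in sperm and 0.270 of 559 calls in tail. The largest gap was at 226 bp, where none of 157 sperm calls was methylated and the tail level was 0.940 of 166 calls. The mean level of the flank was 0.188 in sperm and 0.746 in tail. The tail mean included a CpG at 288 bp with 1 call, methylated, and no call in sperm. The summed calls gave 0.204 in sperm and 0.463 in tail (Fisher's exact test, adjusted p = 1.61e-39). Its own LTR had 0.817 in sperm and 0.847 in tail, which differed by less than 0.2.

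The IAPLTR2 5′ flank on chromosome 10 lay 27967 bp from 2310057J18Rik. At 111 bp its level was 0.597 in sperm and 0.852 in tail, at 127 bp 0.256 in sperm and 0.974 in tail, and at 202 bp 0.314 in sperm and 0.423 in tail. All 3 CpGs were lower in sperm, and the means were 0.389 in sperm and 0.750 in tail. Summed calls gave 0.458 in sperm and 0.727 in tail (adjusted p = 1.56e-52 by Fisher's exact test). The adjoining LTR had 0.897 in sperm and 0.905 in tail.

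The IAPLTR1 3′ flank was 68933 bp from Actr3, which encodes a subunit of the complex that nucleates branched actin. Its CpGs at 29, 32 and 71 bp had levels of 0.649, 0.512 and 0.759 in sperm and 0.973, 0.970 and 0.905 in tail. All 3 were lower in sperm, and the means over all covered positions were 0.640 in sperm and 0.970 in tail. Summed calls gave 0.602 in sperm and 0.950 in tail (adjusted p = 2.01e-74, Fisher's exact test). The LTR beside it had 0.794 in sperm and 0.958 in tail, lower in sperm as well.

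The other named flanks that were lower in sperm were a 5′ flank of IAPLTR1a and a 3′ flank of IAPLTR2. The IAPLTR1a flank, whose nearest coding gene was Epm2a, the gene of a glycogen phosphatase, at 234579 bp, had a level of 0.657 in sperm and 0.981 in tail. The IAPLTR2 flank, with Phf3 as its nearest coding gene at 114613 bp, had 0.389 in sperm and 0.708 in tail. In this IAPLTR2 flank the sperm mean included positions of 1 and 3 calls, and the summed calls gave 0.624 in sperm and 0.833 in tail.

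The next 4 flanks were higher in sperm. All lie downstream of 3′ LTRs on the plus strand of chromosome 1.
IAPLTR1 3′ flank, chr1:87467260-87467534: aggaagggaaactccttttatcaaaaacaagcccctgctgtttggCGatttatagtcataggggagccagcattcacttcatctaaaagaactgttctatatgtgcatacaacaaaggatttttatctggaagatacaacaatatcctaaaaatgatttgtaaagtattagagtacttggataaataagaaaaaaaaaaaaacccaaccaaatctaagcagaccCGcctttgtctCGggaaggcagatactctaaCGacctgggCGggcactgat
IAPLTR1a 3′ flank, chr1:79944161-79944454: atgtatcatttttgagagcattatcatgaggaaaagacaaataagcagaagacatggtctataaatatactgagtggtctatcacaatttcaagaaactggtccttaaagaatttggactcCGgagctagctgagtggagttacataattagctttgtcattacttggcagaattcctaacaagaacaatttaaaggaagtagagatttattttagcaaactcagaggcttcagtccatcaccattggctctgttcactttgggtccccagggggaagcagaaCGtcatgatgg
IAPLTR1a 3′ flank, chr1:149400365-149400632: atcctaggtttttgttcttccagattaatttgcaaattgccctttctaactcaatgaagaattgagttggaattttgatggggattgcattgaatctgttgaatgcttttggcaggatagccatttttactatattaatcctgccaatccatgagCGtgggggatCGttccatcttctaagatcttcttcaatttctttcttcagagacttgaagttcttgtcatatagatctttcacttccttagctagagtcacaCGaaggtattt
IAPLTR2a2 3′ flank, chr1:171832732-171832989: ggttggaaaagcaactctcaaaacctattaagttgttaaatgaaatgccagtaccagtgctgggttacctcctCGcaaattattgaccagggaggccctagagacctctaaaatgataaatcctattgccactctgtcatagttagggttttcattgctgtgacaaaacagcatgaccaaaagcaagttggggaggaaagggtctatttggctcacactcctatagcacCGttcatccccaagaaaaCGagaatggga

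The IAPLTR1 flank lay 3012 bp from Snorc, a gene of a cartilage proteoglycan. At 225 bp its level was 0.980 of 402 calls in sperm and 0.290 of 138 calls in tail, and at 236 bp it was 0.990 of 416 calls in sperm and 0.353 of 136 calls in tail. At 256 bp it was 0.659 in sperm and 0.387 in tail, and at 265 bp 0.290 in sperm and 0.057 in tail. All 5 CpGs were higher in sperm, the one at 46 bp with 11 sperm calls. The means were 0.748 in sperm and 0.294 in tail. Summed calls gave 0.844 in sperm and 0.341 in tail (adjusted p = 3.58e-132, Fisher's exact test). Here the LTR differed in the same direction, with 0.927 in sperm and 0.596 in tail.

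In the other 3 flanks the LTR did not follow, with levels between 0.858 and 0.905 in sperm and between 0.935 and 0.951 in tail. The IAPLTR1a flank whose nearest coding gene was Serpine2, a serine protease inhibitor gene 82980 bp away, had 0.992 of 520 calls in sperm and 0.899 of 138 calls in tail at 122 bp. At 284 bp it had 9 methylated of 9 calls in sperm and 0.202 of 331 calls in tail, so that the libraries were deep at different CpGs. The IAPLTR1a flank whose nearest coding gene was Pla2g4a, the gene of a cytosolic phospholipase 429254 bp away, had 80 methylated of 80 calls in sperm and 0.057 of 122 calls in tail at 156 bp. The CpG 10 bp further on had 0.912 of 80 calls in sperm and 0.700 of 10 calls in tail, and that at 258 bp had a level of 1 in sperm and 0.950 in tail. The difference thus sat mostly at 1 CpG.

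The IAPLTR2a2 flank lay 6966 bp from Cd84, which encodes a receptor of immune cells. Its CpG at 230 bp had a level of 0.992 of 124 calls in sperm and 0.389 of 113 calls in tail, and that at 248 bp had 0.993 of 134 calls in sperm and no methylated call of 118 in tail. The means were 0.995 in sperm and 0.597 in tail. The tail mean included a CpG at 74 bp with 5 methylated calls and one at 815 bp with 1. Summed calls gave 0.992 in sperm and 0.211 in tail (adjusted p = 1.46e-85, Fisher's exact test). The last named flank of this direction, an IAPLTR1 3′ flank 10757 bp from Ikzf2, a transcription factor gene of T cells, had 0.987 in sperm and 0.648 in tail. Its tail mean rested in part on a position with 1 call, and the summed calls gave 0.984 in sperm and 0.786 in tail.

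**Figure D3:**
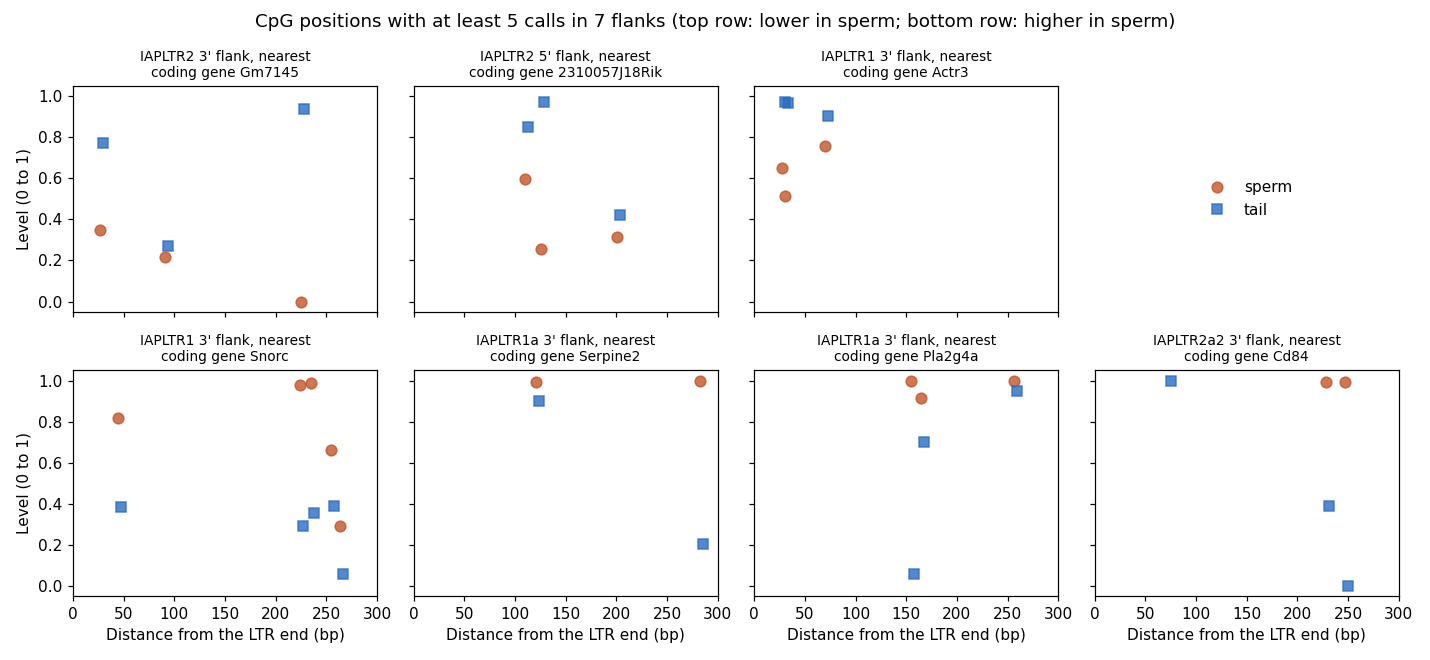
Level (0 to 1) of each CpG position with at least 5 calls by distance from the LTR end in bp, in 7 named flanks, with sperm as circles drawn left of tail squares. In the 3 flanks of the top row every position read in both libraries was lower in sperm, and in the 4 of the bottom row every position with at least 5 calls in both was higher in sperm.

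The minimum of 3 positions left more 3′ than 5′ flanks to choose from. Of the flanks measured in both libraries, 64 3′ flanks and 31 5′ flanks had 3 or more positions in the library with fewer. Whether a low level goes with the side of the element was not tested. Among flanks with the depth set for named ones, the last of the 5 lowest sperm levels was 0.3888. The IAPLTR2 5′ flank on chromosome 10 had 0.3890. Flanks with the 5 lowest levels of either library were thus all downstream of 3′ LTRs, in sperm by a narrow margin. Apart from those already named, they were an IAPLTR1a flank 366713 bp from the nearest coding gene, Brinp3 (0.234 in sperm and 0.463 in tail), an IAPLTR2 flank 23767 bp from Ulbp1, a ligand gene of natural killer cell receptors (0.335 in sperm and 0.419 in tail), a second IAPLTR1a flank (0.350 in sperm and 0.381 in tail), an IAPLTR2 flank (0.508 in sperm and 0.262 in tail) and an IAPLTR2a2 flank (0.391 in sperm and 0.452 in tail). With calls summed, these 5 had 0.501, 0.581, 0.839, 0.716 and 0.792 in sperm and 0.806, 0.569, 0.892, 0.842 and 0.553 in tail. In the flank near Ulbp1 the CpG at 118 bp had 0.012 of 83 calls in sperm and 0.259 of 158 calls in tail, beside CpGs at 58 and 74 bp with 0.574 and 0.752 in sperm and 0.826 and 0.590 in tail.

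Flanks were lower than the LTRs they adjoin. Flank and LTR were set against each other within each library, with the same test, over the flanks of all LTR types that had 20 calls in both parts. In sperm the median level was 0.777 in 226 flanks and 0.883 in their LTRs, with a median difference of −0.10. In tail it was 0.740 in 220 flanks and 0.913 in their LTRs, with a median difference of −0.15. Lower than the LTR were 74 flanks in sperm, against 29.9% of flanks of all LTR types, and 77 in tail, against 30.3%. Higher than the LTR were 4 of 226 in sperm, against 3.33% of flanks of all LTR types, and 1 of 220 in tail, against 1.42%. Of the members, 32.7% were lower in sperm and 35.0% in tail, but the shares over all LTR types include the members. Among flanks of solo LTRs alone, 20.6% (upstream) and 29.9% (downstream) were lower in sperm, and 24.4% and 25.6% in tail.

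By side, 28 of 91 5′ flanks in sperm and 24 of 90 in tail were lower than their LTR, and 46 of 135 3′ flanks in sperm and 53 of 130 in tail. With levels from summed calls, 30 5′ and 29 3′ flanks were lower than their LTR in sperm, and 18 5′ and 36 3′ flanks in tail. The gap in medians was then smaller. Over regions measured in both libraries, summed medians of 5′ flanks were 0.796 in sperm and 0.891 in tail, against 0.859 and 0.913 for 5′ LTRs. Those of 3′ flanks were 0.844 in sperm and 0.823 in tail, against 0.891 and 0.919 for 3′ LTRs. In the main measure, 63 of 194 flanks tested in both libraries were lower than their LTR in sperm and 73 in tail. The 33 that were lower in both are 52.4% of the sperm list and 45.2% of the tail list. Over all members tested, 35.0% were lower in tail and 32.7% in sperm. The LTRs themselves spanned a narrow range, with quartiles of 0.831 and 0.913 in sperm and 0.857 and 0.936 in tail. The flanks had quartiles of 0.538 and 0.921 in sperm and 0.565 and 0.921 in tail. Over regions measured in both libraries, a flank had a median of 2 or 3 covered positions and an LTR 10 or 11. The part of this in the spread and in the relation of flank and LTR was not tested. Flank and LTR levels were weakly related in sperm (Spearman's rho 0.233 over 226 flanks) and not visibly in tail (0.022 over 220), as descriptions over regions of 1 library. The 8 flanks at or under 0.2 in sperm adjoined LTRs of 0.631 to 0.896, and the 8 in tail adjoined LTRs of 0.805 to 0.947.

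**Figure D4:**
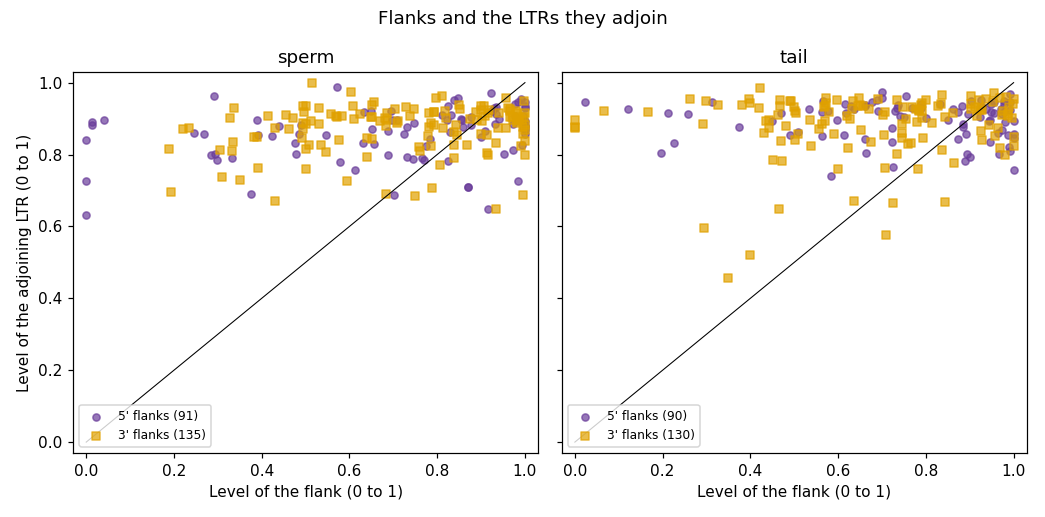
Level (0 to 1) of each flank on the x axis and of the LTR it adjoins on the y axis, in sperm (left, 226 flanks) and tail (right, 220 flanks), with 5′ flanks as circles and 3′ flanks as squares. Nearly all LTRs lie above 0.6 while the flanks spread over the whole range, so that most points lie above the diagonal of equal levels.

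Median levels were above 0.8 in every distance bin up to 300 bp, with no steady order among the bins. Over positions with at least 5 calls, the median level in 5′ flanks at 1 to 50 bp was 0.857 in sperm (37 positions) and 0.944 in tail (32 positions), and between 150 and 200 bp it was 0.903 in sperm and 0.899 in tail. In 3′ flanks it was 0.921 in sperm and 0.917 in tail at 1 to 50 bp, 0.884 in sperm and 0.814 in tail between 50 and 100 bp, and 0.914 in sperm and 0.871 in tail between 150 and 200 bp. The lower quartile between 50 and 100 bp was 0.748 in sperm and 0.488 in tail. Between 200 and 300 bp the 3′ medians were 0.804 in sperm (83 positions) and 0.835 in tail (98 positions), with lower quartiles of 0.429 in sperm and 0.536 in tail. Between 300 and 400 bp they were 0.463 of 12 positions in sperm and 0.643 of 24 positions in tail, but a median of only 8.5 calls in sperm and 17 in tail stood behind a position. With at least 20 calls per position, 1 such position was left in sperm (0.482) and 12 in tail (median 0.709). Between 400 and 600 bp the 3′ medians were 0.938 of 8 positions in sperm and 0.833 of 5 positions in tail.

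**Figure D5:**
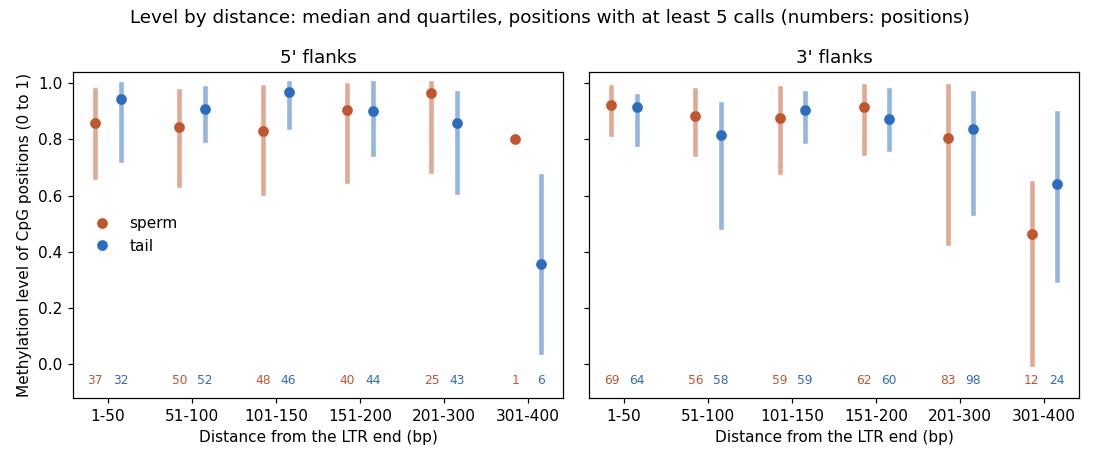
Methylation level (0 to 1) of CpG positions with at least 5 calls by distance from the LTR end in bp, as median (point) and quartiles (bar), for 5′ flanks (left) and 3′ flanks (right), with sperm left of tail and the number of positions below. Medians stay above 0.8 up to 300 bp in both libraries, and the values between 300 and 400 bp rest on 1 to 24 positions.

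Within single flanks the near and far parts could be compared where both were covered. The near part lay 1 to 100 bp and the far part lay between 200 and 400 bp from the LTR, with at least 5 calls per position. In 3′ flanks the near part was higher in 16 of 25 flanks in sperm and in 17 of 28 in tail, with median differences of 0.088 in sperm (95% order-statistic interval from −0.005 to 0.282) and 0.068 in tail (−0.034 to 0.322). In 5′ flanks it was higher in 2 of 11 in sperm and in 8 of 14 in tail. The medians there were −0.13 in sperm (−0.486 to 0.032) and 0.024 in tail (−0.231 to 0.355), and all 4 intervals held 0. Positions on chromosome 1 over 10000 bp from any listed copy, read with at least 5 calls, had a median of 1 and a mean of 0.716 in sperm and a median of 0.952 and a mean of 0.640 in tail. Of these, 26.0% in sperm and 30.1% in tail were at or under 0.2, against 5.19% in sperm and 4.37% in tail of flank positions at 1 to 100 bp. The distant positions had a median of 7 calls, and the flank positions at 1 to 100 bp one of 270 in sperm and 114.5 in tail. Of flank positions between 200 and 400 bp, 14.0% in sperm and 14.6% in tail were at or under 0.2. Their medians were 50 calls in sperm and 38 in tail. No test was made between the distant positions and the flanks, nor of the part of depth.

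Among subfamilies, the 5′ flanks of IAPLTR2 stood lower in sperm. The 14 flanks measured in both libraries had levels with a minimum of 0, a median of 0.622 and a maximum of 0.995 in sperm and a minimum of 0.121, a median of 0.893 and a maximum of 0.993 in tail. Of these, 7 were called lower and 1 higher in sperm, where 9.91% of all regions were lower and 5.69% higher. The subfamily was singled out after its values were seen. The ranges overlapped, and 5 of the 14 were read at a single position in sperm. The LTRs beside them had levels of 0.757 to 0.920 in sperm and 0.766 to 0.967 in tail. The 3′ flanks of the same subfamily did not share this, their median being 0.783 in sperm and 0.766 in tail, with 3 lower and 4 higher of 18. In IAPLTR2b the 5′ flanks were the other way round, with a median of 0.766 in sperm and 0.227 in tail over 5 flanks, 2 of them called higher in sperm. These 5 had 1 or 2 positions in sperm and 2 to 4 in tail, and in summed calls the levels were 0.376 to 0.869 in sperm and 0.421 to 0.953 in tail. By summed calls 2 of the 5 were lower in sperm, with 0.376 in sperm and 0.421 in tail in one and 0.700 in sperm and 0.953 in tail in the other.

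The subfamilies with most measured flanks were near the medians of all flanks. The 5′ flanks of IAPLTR1a had a median of 0.779 in sperm and 0.756 in tail (32 flanks, 6 lower and 2 higher in sperm), and the 3′ flanks 0.686 in sperm and 0.645 in tail (37 flanks, 5 lower and 8 higher). The 5′ flanks of IAPLTR1 had 0.836 in sperm and 0.714 in tail (18 flanks, 1 lower and 5 higher), and the 3′ flanks 0.748 in sperm and 0.676 in tail (29 flanks, 4 lower and 8 higher). IAPLTR2a2 was seen almost only on its 3′ side, with 18 of 39 3′ flanks measured in both libraries and 2 of 45 5′ flanks. Its 5′ LTRs had a median of 3 mismatches to IAP-BS1 and its 3′ LTRs a median of 0 to IAP-BS2.

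Most flanks were outside genes. By GENCODE annotation of the first 300 bp, 472 flanks were intergenic, 133 intronic and 17 overlapped an exon. Of the elements with a flank in a gene, 57 lay antisense to it, 21 sense, and 2 had genes on both strands. Intergenic flanks had medians of 0.749 in sperm and 0.746 in tail (144 measured, 24 lower and 26 higher in sperm), and intronic flanks 0.780 in sperm and 0.702 in tail (42 measured, 6 lower and 8 higher). Among 5′ flanks, 15 of 57 intergenic ones were lower in sperm and 5 higher, while of 18 intronic ones 0 were lower and 5 higher. In 3′ flanks it was the other way round. There 9 of 87 intergenic ones were lower and 21 higher, and 6 of 24 intronic ones were lower and 3 higher. Over all regions tested, 9.91% were lower and 5.69% higher. These differences by gene context were not tested. Flanks that were repeat-masked over at least 80% of their first 300 bp had medians of 0.648 in sperm and 0.676 in tail (63 flanks), against 0.807 in sperm and 0.748 in tail for 71 flanks masked over under 20%.

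In 5 flanks an annotated transcript start fell within the 1000 bp. The deepest flank of all was one of these, a 3′ flank of IAPLTR1a on chromosome 10 that holds the snoRNA gene model Gm25635 inside Stxbp5, the gene of a regulator of vesicle fusion. Its level was 0.956 of 54440 calls in sperm and 0.938 of 20176 calls in tail. The 5′ flank of IAPLTR2a with the start of the lincRNA Gm33973 had 10 reference CpGs in 300 bp and levels of 0.858 in sperm and 0.754 in tail. The 3′ flank with the start of the lincRNA Gm47823 had 0.332 in sperm, from 1 position, and 0.443 in tail. The 3′ flank with Gm37410 had 0.993 in sperm and 0.502 in tail from 1 and 2 positions. The fifth flank, with Gm37623 in an intron of Slc9a2, a sodium-proton exchanger gene, had no call.

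Both flanks of 1 element were only loosely related. Levels of both sides were known for 59 elements in sperm, with a median of 0.831 upstream and 0.785 downstream, and for 54 in tail, with 0.748 upstream and 0.740 downstream. The upstream flank was higher in 31 of 59 in sperm and in 26 of 54 in tail. Spearman's rho between the sides was 0.142 in sperm and 0.128 in tail, and with at least 100 calls per flank 0.337 over 34 elements in sperm and 0.355 over 24 in tail. The median absolute difference between the sides of 1 element was 0.168 in sperm and 0.175 in tail. With at least 100 calls per flank it was 0.121 in sperm and 0.135 in tail. Between the libraries for 1 flank it was 0.122 over 78 5′ flanks and 0.136 over 116 3′ flanks. These flanks had at least 20 calls and are not the same set as the elements with both sides known.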

How the data were processed

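Genomic DNA of sperm and tail was bisulfite-treated, copied from random primers, amplified with a primer inside the LTR and sequenced as read pairs. Per the labels and methods the authors mapped the reads to mm10 with Bismark (version not given in the sources used here) and dropped pairs with several matches. For every covered CpG position of either strand they deposited a percent and, behind it, a count of methylated and a count of unmethylated calls. The deposited percent was not used. Pairs that could not be placed uniquely are therefore absent from the levels.

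The files hold 95744413 calls (sperm) and 55366653 calls (tail). All 754507 and 959191 covered positions were checked to be CpGs of GRCm38. Flanks followed the authors' list of copies, whose methylation columns were not read. Members and lists were chosen with earlier results of these data known. A region needed 20 calls per library. Positions were tested with 10 calls in both, and distances described with 5. Fisher's exact test was two-sided with Benjamini-Hochberg adjustment. Named flanks were the 5 largest called differences in each direction and the 5 lowest in each library with 100 calls and 3 positions, and flanks with a transcript start. The test was first tried on simulated calls. Genes came from GENCODE M21. Alternatives were other call minimums, summed calls, other distances, strands and differences. Calculations used Python 3.11.15, pandas 2.3.3, numpy 2.4.6, scipy 1.17.1 and matplotlib 3.10.9.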

Additional observations from a re-analysis of the deposited data

How the results depend on the processing

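No paired analysis was possible because each tissue has 1 library. Of 126 values under alternatives, 111 stayed within 1.5 times the main count or, for medians and correlations, within the 95% interval of the main value. In 3 called flanks the summed calls pointed the other way. The correlations of both flanks of 1 element, whose intervals were wide, were 0.337 in sperm and 0.355 in tail with at least 100 calls, against 0.142 and 0.128. With calls summed, the 5′ flanks lower in sperm numbered 22 and those higher 6, the 3′ flanks lower than their LTR in sperm 29, and the medians were 0.891 (5′, tail), 0.844 (3′, sperm) and 0.823 (3′, tail). When positions under 5 calls were left out, the 3′ medians were 0.822 in sperm and 0.809 in tail, and 0.806 in sperm and 0.776 in tail within 300 bp. The 5′ medians were 0.823 in sperm and 0.872 in tail without positions under 5 calls. Within 300 bp they were 0.771 in sperm and 0.862 in tail. In both settings sperm was thus the lower for 5′ flanks, unlike in the main setting. At least 100 calls per region left 8 of 56 5′ flanks lower in sperm (14.3%, against 19.2% in the main setting). It left 16 of 65 5′ flanks lower than their LTR in sperm (24.6%, against 30.8%). A minimum difference of 0.1 gave 20 5′ flanks higher and 26 3′ flanks lower in sperm. A minimum of 0.3 gave 7 5′ flanks and 6 positions of 5′ flanks higher in sperm. The cause was not tested. With 20 calls per position the near minus far median of 5′ flanks in sperm was 0.003 over 6 flanks. Limiting the flanks to elements with identical bases on both sides, chosen after seeing the data, kept the 4 counts of flanks called between sperm and tail within 1.5 times. Flanks with under 20 calls have no level here, and differences between animals were not measured.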
